A study of Mus musculus with 48 samples.

Results

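The effect of Msh3 genotype on striatum without a Huntington's disease allele was measured by setting 8 RNA-seq libraries labelled Msh3-/- against 7 labelled WT (wild type). The libraries were chosen by the genotype in their titles and are 15 of the 48 in the series. All came from the striatum of C57BL/6 mice aged 6 months. The Msh3-/- group held 4 female and 4 male libraries, and the WT group 3 female and 4 male. The other groups used here for comparison were Q140 Msh3-/- (n = 8), Msh3+/- (n = 9) and Q140 (n = 8), where Q140 mice carry a knock-in Htt allele with a long CAG repeat in heterozygous form. The labels give neither the structure of the Msh3 allele nor the C57BL/6 substrain, and nothing in them ties each library to its own mouse, so p-values measure the spread between these libraries.

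Msh3 is a subunit of MutSβ, a mismatch repair complex that binds small loops of unpaired bases in DNA. The same activity lengthens CAG repeats in somatic cells, and the medium spiny neurons of the striatum, the inhibitory projection neurons that make up most of its neurons, are where that lengthening is best known. Lowering Msh3 is therefore of interest in Huntington's disease, and Msh3-/- against WT asks what its loss does to a striatum with no expanded repeat. DNA beside a targeted allele is inherited with it, so an effect of the allele and one of linked DNA cannot be told apart in this design.

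Total counts ran from 37.9 M to 52.6 M in the 15 libraries, and 19975 genes had enough reads to be tested. The biological coefficient of variation was 10.3%. Levels are given as CPM (read counts scaled to a common library size), differences as log2 fold changes of Msh3-/- over WT with their standard errors (SE), and "rose" or "fell" marks an adjusted p under 0.05 in edgeR. The tissue label held: Ppp1r1b, which encodes DARPP-32, stood at 732 ± 47.1 FPKM in Msh3-/- and 703 ± 43.4 FPKM in WT (SD, n = 8 and 7), while the cortical glutamate transporter Slc17a7 stood at 0.958 ± 0.262 FPKM in Msh3-/- and 1.96 ± 1.89 FPKM in WT.

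Msh3 reads went against the label. Msh3 (ENSMUSG00000014850, GRCm38 chromosome 13, 92211872 to 92355003, minus strand) had 111 CPM in the lowest Msh3-/- library, a median of 117 and 131 in the highest, against 29.1, 31.1 and 33.0 CPM in WT. The groups were far apart and did not overlap. The fitted difference was 1.95 (SE 0.041, adjusted p = 4.52e-38), a 3.86-fold higher count in the libraries labelled Msh3-/-. Counts per gene do not show which part of a gene the reads cover or whether a protein is made, so the groups are named by their labels and every direction below rests on those labels.

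Htt, the gene with the repeat in Q140 mice, stood at 207.9 ± 4.91 CPM in Msh3-/- and 209.2 ± 3.15 CPM in WT, a difference of -0.01 (SE 0.042).

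Msh3-/- against WT changed 6 of the 19975 genes tested (0.03%) at an adjusted p under 0.05 in edgeR's quasi-likelihood test. Msh3 and F2r rose (0.01%), and Rasgrf2, Cmya5, AW495222 and Sv2c fell (0.02%). All 6 lie on chromosome 13, and the 5 besides Msh3 start or end within 3.60 Mb of it. The libraries of the 2 groups did not overlap for any of the 6 but Sv2c, against 11 of all genes tested (0.0551%). Beside these 5, the genes with no overlap were Tmem174, Zfp493 and Ipo11 on chromosome 13 and Gm15190, Fip1l1 and Gm16485 elsewhere, named here after their values were seen. Tmem174, 6.28 Mb from Msh3, was close to the limit of detection at 0.0356 ± 0.0285 CPM in Msh3-/- and 0.256 ± 0.166 CPM in WT (adjusted p = 0.262); it was called with DESeq2 (adjusted p = 0.0320), with plate row as a covariate (adjusted p = 0.0290) and in Q140 Msh3-/- against Q140 (adjusted p = 0.000144).

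F2r encodes the protease-activated receptor 1, a G-protein coupled receptor that thrombin opens by cleavage; it lies 3.25 Mb from Msh3 at 95601803 to 95618487 on the minus strand. Its level was 7.06 CPM in the lowest Msh3-/- library, 7.91 at the median and 10.9 in the highest, against 3.30, 3.81 and 5.10 CPM in WT. Every Msh3-/- library was above every WT library. F2r rose by 1.06 (SE 0.10, adjusted p = 1.15e-09), a 2.08-fold difference.

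Rasgrf2, a calcium-activated exchange factor for Ras and Rac, is the nearest of the 5, 80.2 kb beyond the 3′ end of Msh3 on the same strand (91880400 to 92131656). It had 15.9, 22.7 and 26.5 CPM as lowest, median and highest value in Msh3-/-, against 27.4, 53.6 and 101 CPM in WT. The groups did not overlap, but WT libraries were spread widely, and the lowest of them, F3, stood just above the highest Msh3-/- library. Rasgrf2 fell by 1.43 on the log2 scale (SE 0.16, adjusted p = 3.71e-07), to 0.372 of its WT level. The fall was lost when the fit held only the 15 libraries (-1.41, adjusted p = 0.182) and in females alone (-0.96, adjusted p = 0.547).

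Cmya5 encodes myospryn, a large protein best known from muscle, and lies 0.686 Mb from Msh3 at 93040713 to 93144724 on the minus strand. Its lowest, median and highest levels were 8.50, 9.13 and 11.6 CPM in Msh3-/-, against 12.2, 18.6 and 19.95 CPM in WT. The highest Msh3-/- library stood just below the lowest WT library, M3. Cmya5 fell by 0.90 on the log2 scale (SE 0.089, adjusted p = 1.83e-09).

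AW495222 is a long noncoding RNA annotated as antisense, at 93706182 to 93719175 on the minus strand, 1.35 Mb from Msh3. It lies within Dmgdh, a gene of choline breakdown on the plus strand with too few reads to be tested; whether the counting used strand is not given, so reads of the 2 cannot be told apart. Its lowest, median and highest levels were 0.497, 0.706 and 1.07 CPM in Msh3-/-, against 1.16, 1.61 and 2.10 CPM in WT. The groups did not overlap, and AW495222 fell by 1.14 on the log2 scale (SE 0.18, adjusted p = 0.000161). The call was lost in males only (-0.93, adjusted p = 0.183).

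Sv2c, a synaptic vesicle glycoprotein enriched in the basal ganglia, had the smallest of the 6 differences and the highest CPM. It lies 3.60 Mb from Msh3 at 95954594 to 96132577 on the minus strand. Its lowest, median and highest levels were 335, 395.95 and 442 CPM in Msh3-/-, against 431, 468 and 491 CPM in WT, and the ranges overlapped. Sv2c fell by 0.28 on the log2 scale (SE 0.054, adjusted p = 0.0163). The call was lost in 8 of the 15 fits that left out 1 library, namely Msh3-/- F1, F2, F4 or M4 or WT F1, F3, M1 or M4, with log2 differences of -0.32 to -0.25 over all 15, and without the 4 WT libraries that stood apart in cell type markers (-0.23, adjusted p = 0.99997). It was also lost with no sex covariate (adjusted p = 0.111), with only the 15 libraries (0.182), with plate row as a covariate (0.860), in females only (0.571) and in males only (0.414).

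**Figure D1:**
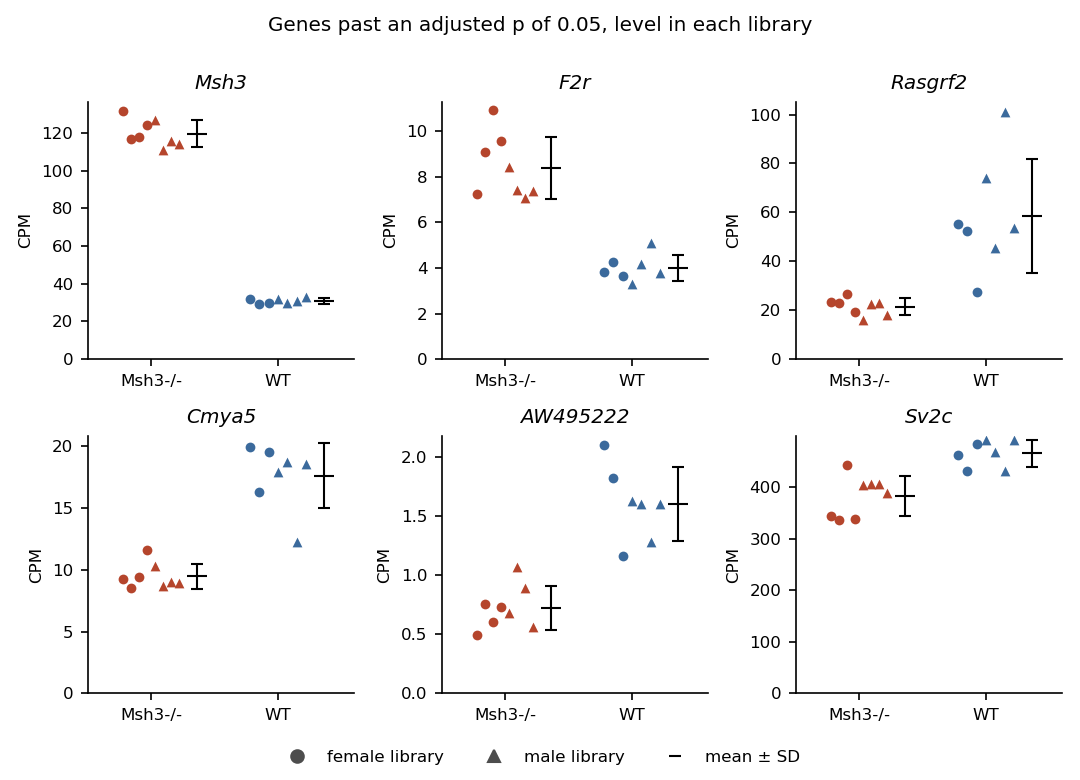
CPM of the 6 genes past the threshold in each library (circles female, triangles male), Msh3-/- on the left of each panel and WT on the right, with mean ± SD (n = 8 and 7). Msh3 sits between 111 and 131 CPM in Msh3-/- and between 29.1 and 33.0 CPM in WT, and Sv2c is the one gene whose ranges overlap.

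Differences too small to pass the threshold also lay near Msh3. Of the 59 genes tested within 5 Mb of it, Msh3 itself left out, 21 (35.6%) had an unadjusted p under 0.05, against 4.04% of all genes tested and 3.91% of the 19288 genes on other chromosomes. Of the 21, 8 were higher and 13 lower in Msh3-/-. The 21 include the 5 genes called above, and without these the count was 16 of 54 (29.6%). The share was 10.5% of 57 genes between 5 and 10 Mb, 2% of 100 between 10 and 20 Mb, 5.77% of 208 between 20 and 40 Mb and 3.97% of 252 farther away. The median size of the log2 difference, whatever its sign, was 0.089 within 5 Mb and 0.050 on other chromosomes. For the 54 genes within 5 Mb that were not called it was 0.068. No test was made of the shares themselves, and neighbouring genes are not independent.

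The 10 genes with the smallest p within 5 Mb that were not called, taken from those averaging 0 or more in log2 CPM, differed by at most 0.51, the value of the antisense RNA 4833422C13Rik (-0.51, SE 0.14). Enc1, an actin-binding protein of neurons 4.89 Mb away, had 340, 382 and 409 CPM as lowest, median and highest value in Msh3-/-, against 269, 326 and 361 CPM in WT, a difference of 0.24 (SE 0.070, adjusted p = 0.9998). The groups overlapped at the edge. Papd4, a cytoplasmic poly(A) polymerase, differed by -0.20 (SE 0.055) and Hapln1, a link protein of the hyaluronan matrix around neurons, by -0.15 (SE 0.046). Col4a3bp, which carries ceramide to the Golgi, differed by -0.13 (SE 0.044). Fam169a differed by 0.17 (SE 0.058), and Gfm2, a mitochondrial factor of ribosome recycling, by 0.11 (SE 0.040). Iqgap2, a scaffold of small GTPases, differed by -0.19 (SE 0.081). Among genes beside Msh3 that carry known striatal roles, Homer1, a postsynaptic scaffold 0.945 Mb away, was at 237 ± 33.0 CPM in Msh3-/- and 248 ± 23.6 CPM in WT (-0.06, adjusted p = 0.9998).

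**Figure D2:**
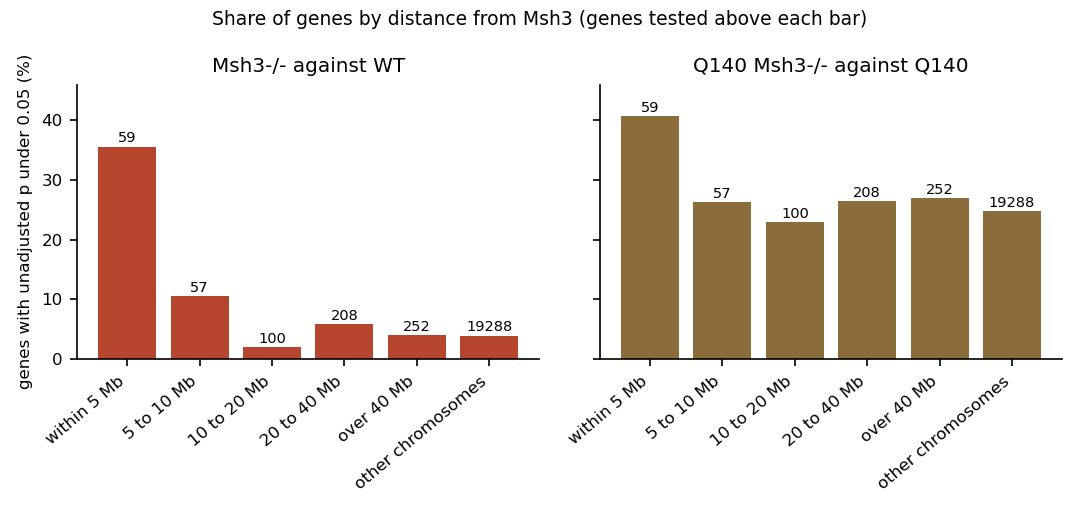
Share of genes (%) with an unadjusted p under 0.05 by distance from Msh3, for Msh3-/- against WT on the left and Q140 Msh3-/- against Q140 on the right, with the number of genes tested above each bar. Within 5 Mb the shares are 35.6% and 40.7%, and on other chromosomes 3.91% and 24.8%.

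The same genotype difference can be read in other libraries, those of Q140 Msh3-/- against Q140, which share none with Msh3-/- against WT although 1 estimate of the spread was fitted to all. The library codes begin with a stem whose meaning is not given. Some Msh3-/- and Q140 Msh3-/- libraries share a stem, as do WT F3 and a Q140 library, so these comparisons may not be independent. Some Msh3-/- libraries also share a stem with each other, while no WT libraries do. Msh3-/- M4 and WT M4 share a stem, also with a Q140 Msh3-/- library. The stems of WT M2 and WT M3 begin with letters that no Msh3-/- library has, so code and genotype are partly confounded. The correlation within stems was estimated at 0.136. In the Q140 pair 2374 genes were called (11.9%), 1368 higher (6.85%) and 1006 lower (5.04%). Of the 6 genes, 5 were called again in the same direction. Msh3 stood at 125.2 ± 6.599 CPM in Q140 Msh3-/- and 32.1 ± 1.27 CPM in Q140, a rise of 1.96 (SE 0.039), which differed from that without Q140 by 0.01 (SE 0.055).

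For the neighbours, values in the Q140 pair were as follows. F2r averaged 6.85 ± 0.777 CPM in Q140 Msh3-/- and 4.38 ± 0.797 CPM in Q140, a rise of 0.64 (SE 0.099, adjusted p = 1.09e-05). Rasgrf2 averaged 21.6 ± 4.03 CPM in Q140 Msh3-/- and 42.3 ± 6.02 CPM in Q140 and fell by 0.96 on the log2 scale (SE 0.16, adjusted p = 4.83e-05). Its spread among Q140 libraries was smaller than among WT libraries, where the SD was 23.3 CPM.

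Cmya5 averaged 8.61 ± 0.918 CPM in Q140 Msh3-/- and 14.4 ± 1.64 CPM in Q140 and fell by 0.75 on the log2 scale (SE 0.088, adjusted p = 9.84e-08). AW495222 averaged 0.680 ± 0.237 CPM in Q140 Msh3-/- and 2.79 ± 0.378 CPM in Q140, and its fall of 2.02 (SE 0.17, adjusted p = 5.28e-12) was larger with Q140 than without by 0.88 on the log2 scale (adjusted p of the difference 0.0412). Over all genes that difference was called for 478 (2.39%), 334 of them positive (1.67%) and 144 negative (0.721%). Sv2c averaged 383 ± 22.9 CPM in Q140 Msh3-/- and 418 ± 48.3 CPM in Q140, a difference of -0.12 (SE 0.052) that did not pass (adjusted p = 0.123), but it passed with library totals alone as scaling (-0.18, adjusted p = 0.00613) and with limma on log2(FPKM + 0.1) (-0.18, adjusted p = 0.00644) or log2(FPKM + 1) (-0.18, adjusted p = 0.00634), where all 6 genes were called again. The test of its difference from the effect without Q140 did not pass (0.15, adjusted p = 0.311).

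Among the 21 genes within 5 Mb with an unadjusted p under 0.05 in Msh3-/- against WT, 16 (76.2%) had the same sign in the Q140 pair and 12 (57.1%) also had an unadjusted p under 0.05 there, out of 24 genes of the window that reached it in the Q140 pair. On other chromosomes 407 of 755 such genes (53.9%) had the same sign and 111 (14.7%) also an unadjusted p under 0.05. The 21 include the 5 called neighbours of Msh3. Of the other 16, 11 (68.75%) had the same sign in the Q140 pair and 7 (43.75%) also an unadjusted p under 0.05. Among the 54 genes of the window not called without Q140, 19 (35.2%) reached that p in the Q140 pair, against 24.9% of all genes tested. In the Q140 pair 11.9% of all genes tested were called, and 17 of the 59 genes in the window (28.8%). They included Enc1 (0.50, SE 0.068), Col4a3bp (-0.14, adjusted p = 0.0212) and Gfm2 (0.12, adjusted p = 0.0311), each with the sign it had without Q140. Papd4 (0.04), Hapln1 (0.05) and Fam169a (-0.07) had the opposite sign in the Q140 pair and were not called. Of the 10 genes with the smallest p within 5 Mb that were not called without Q140, 6 had the same sign in the Q140 pair. Over all genes with an unadjusted p under 0.05 without Q140, that share was 54.9%. Homer1 rose there by 0.61 (adjusted p = 7.25e-05), and that effect differed from the one without Q140 (adjusted p = 0.00987).

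**Figure D3:**
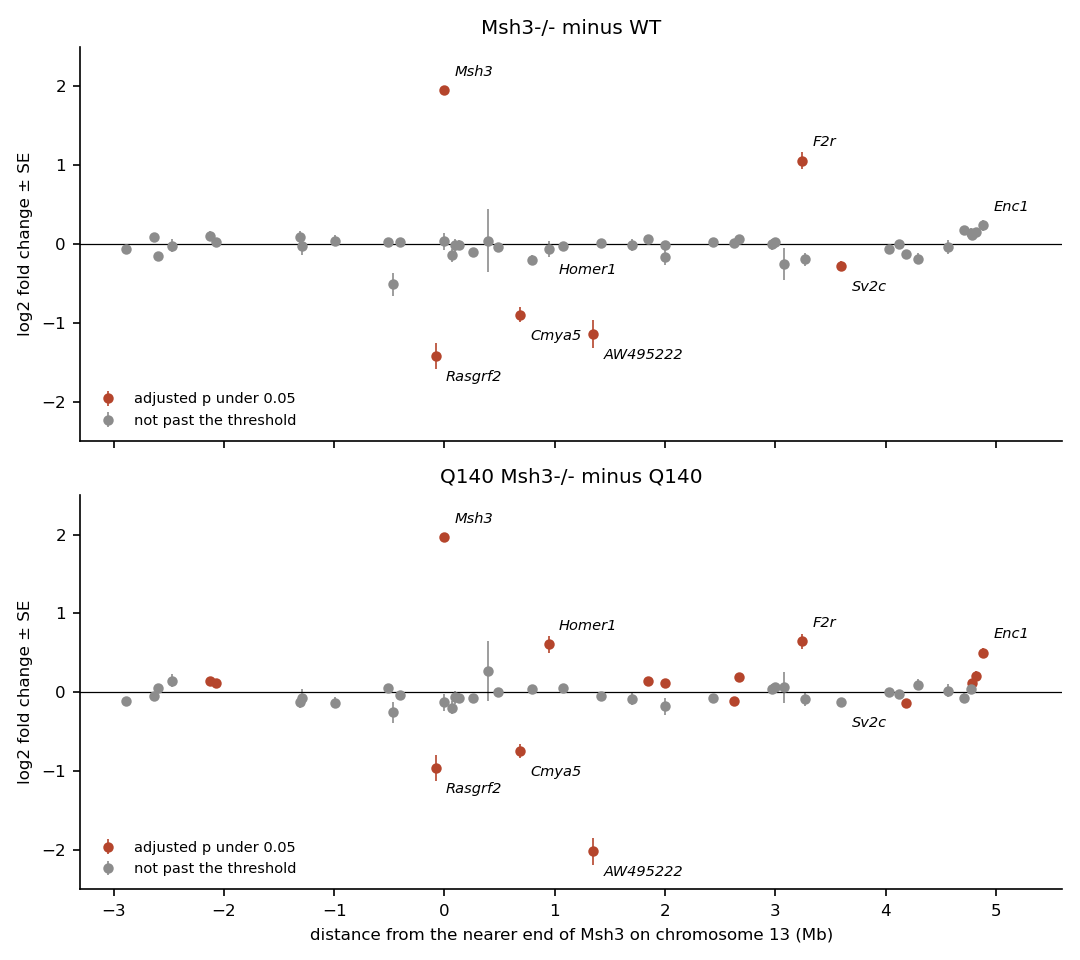
Log2 fold change ± SE of genes averaging 0 or more in log2 CPM by distance from the nearer end of Msh3 (Mb; negative values are at lower coordinates), for Msh3-/- minus WT above and Q140 Msh3-/- minus Q140 below; red points are past an adjusted p of 0.05. Msh3 stands at 1.95 and 1.96, and Rasgrf2, Cmya5, AW495222 and F2r are past the threshold on the same side in both.

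Libraries labelled Msh3+/- are set against the same 7 WT libraries, so the 2 comparisons share them and their values are given side by side only. Msh3 averaged 77.4 ± 4.74 CPM in Msh3+/- (n = 9), 119.7 ± 7.03 CPM in Msh3-/- and 31.0 ± 1.46 CPM in WT. F2r averaged 5.95 ± 0.849 CPM in Msh3+/-, 8.38 ± 1.38 CPM in Msh3-/- and 4.01 ± 0.582 CPM in WT. Msh3 (1.32) and F2r (0.56, adjusted p = 0.0123) were the 2 genes called in Msh3+/- against WT (0.01%), where 943 had an unadjusted p under 0.05 (4.72%) and 0 were called lower (0%). The F2r call was lost without WT F1, F3, M1 or M4, with differences of 0.53 to 0.63 over the 15 fits that left out 1 library.

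The others were not called in Msh3+/-. Rasgrf2 averaged 35.3 ± 4.71 CPM in Msh3+/-, 21.4 ± 3.43 CPM in Msh3-/- and 58.4 ± 23.3 CPM in WT. Cmya5 averaged 13.5 ± 1.74 CPM in Msh3+/-, 9.46 ± 1.03 CPM in Msh3-/- and 17.6 ± 2.64 CPM in WT. The log2 differences of Msh3+/- from WT were -0.71 for Rasgrf2, -0.38 for Cmya5, -0.70 for AW495222 and -0.11 for Sv2c, with adjusted p from 0.221 to 0.988.

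Away from chromosome 13, edgeR called 0 of 19288 genes, of which 755 (3.91%) had an unadjusted p under 0.05. DESeq2 called 1, the pseudogene Tmem181c-ps, and limma on log2(FPKM + 0.1) called 1, Mettl18. Limma-voom with code stem as a random block and limma on log2(FPKM + 1) called 0. The 10 genes with the smallest p more than 5 Mb from Msh3, taken from those averaging 0 or more in log2 CPM and not named as clones, had adjusted p of 0.262 or more and are given as values. Mettl18, which methylates a histidine of a ribosomal protein, had 3.42, 3.68 and 4.02 CPM as lowest, median and highest value in Msh3-/-, against 2.69, 3.16 and 3.67 CPM in WT (0.28, SE 0.066). Osmr, the oncostatin M receptor, had 3.31, 3.90 and 4.85 CPM in Msh3-/-, against 4.35, 4.93 and 7.24 CPM in WT (-0.39, SE 0.098). Both pairs of ranges overlapped.

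Nnt, the transhydrogenase that makes NADPH in mitochondria and whose gene is known to be truncated in the C57BL/6J substrain, lies 27.0 Mb from Msh3 on chromosome 13. It had 34.8, 45.8 and 48.5 CPM as lowest, median and highest value in Msh3-/-, against 25.5, 30.7 and 39.5 CPM in WT. The ranges overlapped, and the difference of 0.46 (SE 0.12) did not pass (adjusted p = 0.770). In the Q140 pair the same gene averaged 43.6 ± 4.92 CPM in Q140 Msh3-/- and 31.8 ± 4.56 CPM in Q140 and rose by 0.46 (SE 0.12, adjusted p = 0.00653).

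The other 7 of the 10 showed smaller or more variable differences. Bach2, a transcriptional repressor, differed by 0.34 (SE 0.099), Tm6sf1 by 0.22 (SE 0.064) and Chmp6, of the ESCRT-III membrane scission machinery, by 0.16 (SE 0.047). Zfp593 differed by -0.27 (SE 0.078) and Zfp493, also on chromosome 13 but 24.4 Mb away, by -0.30 (SE 0.086). Magel2, an imprinted gene of the Prader-Willi region, differed by -0.70 (SE 0.21). Wdfy1, an endosomal protein, had 28.9, 37.5 and 49.0 CPM in Msh3-/-, against 16.6, 17.9 and 43.7 CPM in WT (0.71, SE 0.21). Of these 10 genes, 7 had the same sign in the Q140 pair. Among all 807 genes with an unadjusted p under 0.05, 443 (54.9%) did so. Nnt alone of the 10 was called in the Q140 pair, where 11.9% of all genes tested were called. For 3 of the 10, Osmr, Tm6sf1 and Chmp6, the effect with Q140 differed from that without at an adjusted p under 0.05.

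A p that misses the threshold does not show that a gene was level, so the interval of each difference was examined. The 95% interval lay inside a 1.5-fold change either way for 16017 of the 19975 genes (80.2%). Among the 15415 genes averaging 0 or more in log2 CPM it did so for 14846 (96.3%), and their median half-width was 0.12 on the log2 scale. Below that level it did so for 1171 of 4560 genes (25.7%), whose median half-width was 0.55, so a 1.5-fold change in most of these weakly expressed genes lay within the interval at this depth and spread.

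Genes that mark medium spiny neurons did not pass the test in either class of these cells. Of 30 genes shared by both classes 0 were called and 1 had an unadjusted p under 0.05, the transcription factor Foxp2 (0.12, SE 0.049). All 30 intervals lay inside 1.5-fold, and 25 of the 30 estimates were above 0, with a median of 0.03 beside -0.00 over all genes tested. Summed over the list the level ran from 26365 to 28125 CPM in Msh3-/-, against 24958 to 28160 CPM in WT, so the groups overlapped. In bulk tissue, fewer cells of a type and less RNA per cell cannot be told apart.

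Levels per length were close in both groups for the genes that define these neurons. The phosphodiesterase Pde10a stood at 220 ± 7.22 FPKM in Msh3-/- and 213 ± 15.01 FPKM in WT, and the sodium channel subunit Scn4b at 371 ± 25.0 FPKM in Msh3-/- and 379 ± 15.2 FPKM in WT. Of direct pathway genes, the dopamine receptor Drd1 stood at 88.5 ± 3.27 FPKM in Msh3-/- and 89.7 ± 6.23 FPKM in WT, and the substance P precursor Tac1 at 44.0 ± 2.81 FPKM in Msh3-/- and 41.5 ± 3.07 FPKM in WT. The libraries of the groups overlapped for all 4 genes, and none passed the test.

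In the indirect pathway, the dopamine receptor Drd2 stood at 188 ± 9.50 FPKM in Msh3-/- and 185 ± 11.96 FPKM in WT. The adenosine receptor Adora2a stood at 155 ± 13.3 FPKM in Msh3-/- and 149.99 ± 10.9 FPKM in WT, and the enkephalin precursor Penk at 1193 ± 77.1 FPKM in Msh3-/- and 1176 ± 101 FPKM in WT. Of 10 direct pathway markers 0 were called, with 9 intervals inside 1.5-fold; the exception was Dlk1, a Notch-related ligand (-0.59, SE 0.26, unadjusted p = 0.0324). Of 7 indirect pathway markers 0 were called and all 7 intervals lay inside.

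**Figure D4:**
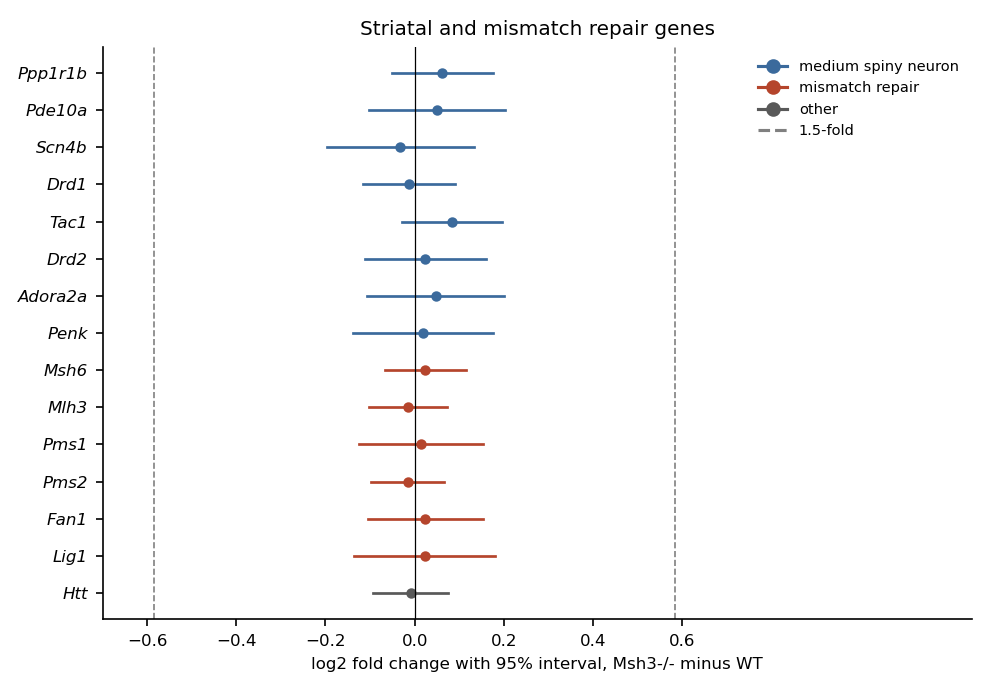
Log2 fold change of Msh3-/- minus WT with its 95% interval for 8 medium spiny neuron genes, 6 mismatch repair genes and Htt; dashed lines mark 1.5-fold. Each interval includes 0 and lies inside the lines, the widest being that of Scn4b, from -0.20 to 0.13.

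Of the other mismatch repair genes none passed the test. Of 25 tested, Msh3 rose and the other 24 were not called, with a list median of 0.02. Msh6, a subunit of the complex that reads base mismatches, averaged 19.97 ± 1.41 CPM in Msh3-/- and 19.7 ± 1.01 CPM in WT (0.02, SE 0.046).

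The downstream factors and the nucleases showed similar values. Mlh3, a subunit of a mismatch repair nuclease, averaged 36.7 ± 0.692 CPM in Msh3-/- and 37.0 ± 1.61 CPM in WT (-0.02, SE 0.044). Pms2 differed by -0.02 (SE 0.041), Pms1 by 0.01 (SE 0.069), the nuclease Fan1 by 0.02 (SE 0.064) and the ligase Lig1 by 0.02 (SE 0.079).

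No gene of other DNA repair or damage lists was called. Of 23 genes of base excision and other repair, 0 were called, 0 had an unadjusted p under 0.05, and the median was -0.00. Of 22 genes of the p53 and DNA damage response, 0 were called and 2 had an unadjusted p under 0.05, the growth arrest gene Gadd45b (0.24, SE 0.085) and the p53 target Phlda3 (-0.19, SE 0.091). The median of that list was -0.01. Cdkn1a, the p53-induced cell cycle inhibitor, differed by -0.23 (SE 0.16, unadjusted p = 0.148). Of 20 cell cycle genes, 0 were called and 0 had an unadjusted p under 0.05.

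Synaptic and signalling lists held the called neighbours of Msh3 and no other called gene. Of 30 synaptic vesicle genes Sv2c fell, while its paralogs Sv2a (0.02) and Sv2b (0.03) did not pass. Of 17 Ras and Rap exchange factors Rasgrf2 fell, and of 12 genes of protease-activated receptors and their partners F2r rose. Of 35 glutamate and GABA receptor subunits 0 were called and all 35 intervals lay inside 1.5-fold. Of 49 respiratory chain genes 0 were called, with 48 intervals inside. Of 22 immediate early genes 0 were called; 10 intervals lay inside, 18 estimates were below 0, with a median of -0.06, and the summed level ran from 1287 to 2211 CPM in Msh3-/-, against 1006 to 2746 CPM in WT.

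Glial and vascular markers did not pass the test either. Of 16 astrocyte, 16 oligodendrocyte, 12 oligodendrocyte precursor, 16 microglia and 16 endothelial and mural markers 0 were called in each list, every interval lay inside 1.5-fold, and the medians ran from -0.03 to 0.04. Of 26 interferon response genes, 16 reactive astrocyte genes, 19 microglia activation genes and 27 heat shock and unfolded protein response genes 0 were called. Their intervals were wider: those inside 1.5-fold numbered 14 of 26, 8 of 16, 12 of 19 and 22 of 27, for these 4 lists in the order named. The astrocyte-derived protease inhibitor Serpina3n differed by 1.44 (SE 0.63, unadjusted p = 0.0270). It stood at 21.2, 24.1 and 25.1 CPM in Msh3-/- F4, M2 and M3 and at 2.88 to 4.89 CPM in the other 5, against 2.95 to 5.91 CPM in WT.

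Over all 27 lists 520 genes were tested, and 4 were called, Msh3, F2r, Rasgrf2 and Sv2c, in 5 lists, since Rasgrf2 is also a cortical marker. With an unadjusted p under 0.05 were 29 (5.58%), against 4.04% of all genes. The lists and their members were chosen with earlier results of these data known.

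**Figure D5:**
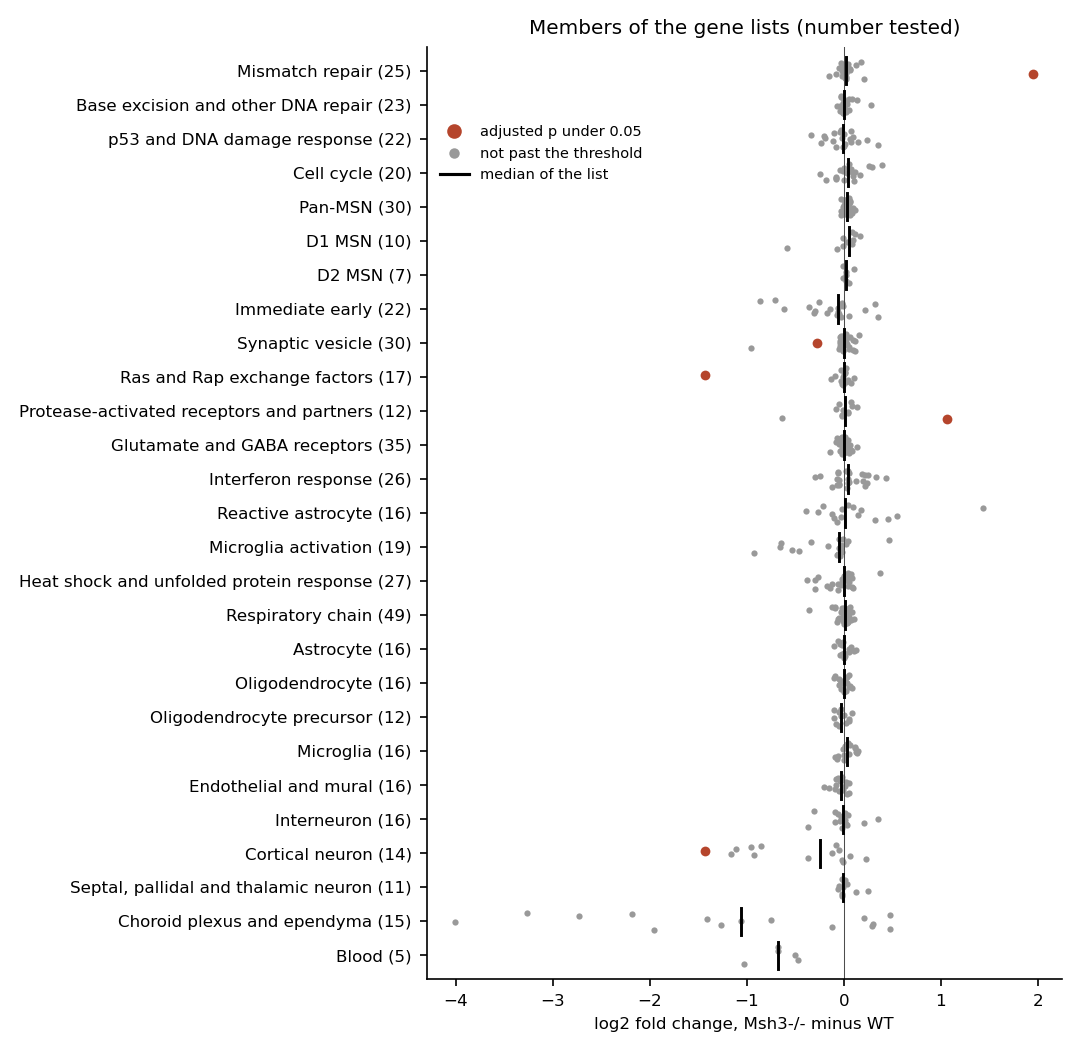
Log2 fold change of Msh3-/- minus WT for each tested member of the 27 gene lists (points, number tested in brackets) with the list's median (bar); red points are past an adjusted p of 0.05. The medians sit between -0.06 and 0.06 except for cortical neuron (-0.25, above 0 in females only), choroid plexus and ependyma (-1.06, above 0 in some other fits) and blood (-0.68, above 0 in females only).

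Markers of tissue beside the striatum differed between libraries within WT. Of 15 choroid plexus and ependymal markers 0 were called and 5 had an unadjusted p under 0.05, all lower in Msh3-/-. Their summed level ran from 51.8 to 78.0 CPM in Msh3-/-, against 31.0 to 672 CPM in WT. Ttr, the main choroid plexus transcript, stood at 6.30 to 19.5 CPM in Msh3-/-, against 217 and 562 CPM in WT M1 and M2 and 2.26 to 38.6 CPM in the other 5 WT libraries. The list median was -1.06, and -0.30 without WT M2. It was -0.34 with limma-voom with code stem as a random block. In other fits it was above 0, at 0.35 with limma on log2(FPKM + 0.1), 0.23 on log2(FPKM + 1) and 0.21 with a filter of 1 CPM in 24 libraries. The direction of this median therefore depends on these settings. Whether these libraries bear on other results was tested only by leaving them out.

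Of 5 blood genes 0 were called and no interval lay inside 1.5-fold. Their median was -0.68, between -1.01 and -0.03 with 1 library left out (-0.03 without WT M3), and 0.90 in females only. Their summed level ran from 0.183 to 15.5 CPM in Msh3-/-, against 0.317 to 29.8 CPM in WT.

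Of 14 cortical markers Rasgrf2 fell and 3 had an unadjusted p under 0.05, all lower in Msh3-/-. Their summed level ran from 378 to 449.7 CPM in Msh3-/-, against 382 to 516 CPM in WT. Slc17a7 stood at 3.36 to 7.08 CPM in Msh3-/-, against 33.8 CPM in WT M4, 12.2 CPM in M3 and 4.89 to 8.38 CPM in the other 5. Rasgrf2 itself was highest in WT M3, at 101 CPM, and stood at 53.6 CPM in M4.

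WT F3, M1, M2 and M4 stood apart in interferon and microglia, choroid plexus or cortical markers. Without them 5 genes were called and 0 of them off chromosome 13. Only WT F1, F2 and M3 then stood for WT, and this fit had less power. Intervals inside 1.5-fold numbered 14575 of 20721 genes tested, against 16017 of 19975 with all libraries. Rasgrf2 then fell by 1.70 on the log2 scale, and the medians were 0.03 for choroid plexus and ependyma, -0.13 for cortical markers, 0.41 for interferon response, 0.25 for immediate early genes and -0.94 for blood. This set was chosen after the data were seen. WT M3, which had the highest Rasgrf2 level (101 CPM) and the highest summed cortical level (516 CPM), stayed in that fit. WT F3, the lowest WT library for Rasgrf2 (27.4 CPM), was left out. Whether the fall in Rasgrf2 depends on cortical tissue was therefore not tested by this fit.

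The Msh3-/- effect was also compared between the sexes. In females alone 4 genes were called and in males alone 8, of which 4 were off chromosome 13: Gpr101, Spry4 and Gpr63 were lower and Rbm43 higher in Msh3-/- males. The difference between the sexes itself was called for 2 genes (0.01%), both on the X chromosome, while 1651 had an unadjusted p under 0.05 (8.27%).

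Gpr101, an orphan G-protein coupled receptor, stood at 13.1, 13.3, 16.0 and 10.7 CPM in Msh3-/- females, against 9.59, 9.51 and 10.7 CPM in WT females. In males it stood at 11.1, 9.23, 12.1 and 11.1 CPM in Msh3-/-, against 21.99, 17.8, 19.98 and 18.9 CPM in WT. WT males were above all other libraries, and the effect in females minus that in males was 1.27 (SE 0.23, adjusted p = 0.0234). Xkrx, a relative of the XK membrane protein, had an effect of -0.33 in females and 0.28 in males, a difference of -0.61 (SE 0.11, adjusted p = 0.0234). The count of 2 was 0 to 1 in 12 of the 15 fits that left out 1 library and 108 without WT M2. No sex difference was called for any of the 6 genes; Rasgrf2 came nearest, at -0.96 in females and -1.78 in males (adjusted p of the difference 0.4997).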

How the data were processed

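Striatal RNA was sequenced in 48 libraries. Reads were aligned and counted with STAR 2.7.5c, SAMtools 1.10 and HTSeq 0.12.3, per the submitters' processing notes. The authors deposited raw counts per gene, and a second table of FPKM, which divide by gene length and depth. Strand setting and mapping filters are not given in the sources used here.

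Counts were kept for 19975 of 48795 genes (filterByExpr, minimum count 10, total 15), scaled by TMM and fitted with edgeR 4.0.16 in R 4.3.3 (quasi-likelihood, robust) to all 48 libraries with group means and sex. Genes were called at a Benjamini-Hochberg adjusted p under 0.05 over all genes, and SEs are the log2 fold change divided by the root of its F. CPM are counts scaled to a common library size after TMM. Genes left out hold 0.0383% of counts. Alternatives used limma 3.58.1 and DESeq2 1.42.0, other scalings and filters, plate position, and libraries left out. The limma-voom fit took the code stem as a random block. Scripts were tested on simulated data. Positions are from GENCODE M21 (GRCm38) by gene ID, for 19893 of the tested genes.

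Named genes are Msh3 and Htt, every called gene, the 10 with the smallest p within 5 Mb of Msh3 and the 10 elsewhere that were not called, the smallest p in each list, and fixed striatal and repair genes. Homer1, Gpr101, Xkrx, Slc17a7, Cdkn1a, Sv2a, Sv2b and the genes that single alternatives called were added after their values were seen. The members and lists were chosen with earlier results of these data known. Some genes that this rule names are not reported here.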

Additional observations from a re-analysis of the deposited data

Results flagged for a closer look

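In 7 of 110 groups of libraries the highest or lowest library stood far from the rest, where chance gives about 1 in 20. WT F3 was the farthest in 4 of them. Its Osmr level was 7.24 CPM, against 5.54 CPM in the next WT library. On the scale of mean log2(CPM + 1) over a list, WT F3 was at 2.68 for interferon response genes (next 2.02), 4.13 for microglia activation genes (next 3.80) and 5.07 for microglia markers (next 4.85). WT M3 was at 4.34 for interneuron markers (next 4.19). Msh3-/- M2 was low at 5.57 for direct pathway markers (next 5.71), and Msh3-/- F1 was high for Gfm2 at 36.9 CPM (next 34.1).

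The Msh3-/- effect differed between the sexes, as the effect in females minus that in males, for Gpr101 (1.27) and Xkrx (-0.61). Leaving out 1 library ended the call in 12 of 15 fits for Gpr101 (1.17 to 1.36) and in 9 of 15 for Xkrx (-0.66 to -0.54).

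The effect in Q140 Msh3-/- over Q140 minus that in Msh3-/- over WT passed its own test for 478 genes (2.39%). Among the genes named here it passed and was positive for some medium spiny neuron genes: 0.67 for Scn4b, 0.61 for Penk, 0.51 for Pde10a, 0.44 for Drd1, 0.37 for Drd2 and 0.31 for Ppp1r1b. It did not pass for others, among them Tac1, Adora2a, Foxp2 and Dlk1. It was also positive for Osmr (0.58) and the glycogen regulator Ppp1r3c (0.31). It was negative for AW495222 (-0.88), Tm6sf1 (-0.35), the nucleotide excision repair gene Xpa (-0.29) and Chmp6 (-0.28).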

How the results depend on the processing

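Of 4080 values recomputed under the alternatives, 190 changed sign: 128 were list medians, in 26 of the 27 lists, and 62 were genes not called. None of the 186 values of the 6 called genes changed sign. Females only gave medians of -0.26 for interferon response, 0.90 for blood and 0.10 for cortical markers. The 6 calls were 5 to 7 when 1 library was left out, 4 with the 15 libraries alone, 4 in females, 8 in males and with DESeq2, and 7 with limma on log2(FPKM + 0.1). Calls off chromosome 13 numbered 4 in males only, 1 with limma on log2(FPKM + 0.1), 1 with DESeq2, and 0 to 1 with 1 library left out; the 1 was Mettl18 (0.33) without WT F2. Without WT M3, Papd4 was called (-0.26). Genes with an unadjusted p under 0.05 numbered 1477 with no count filter, 1554 in males and 685 to 1018 with 1 library left out. Within 5 Mb of Msh3 they numbered 13 in females and 17 to 21 with 1 left out. Intervals inside 1.5-fold numbered 15690 to 15883 with 1 left out.

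The count of sex differences was 0 with no count filter or plate row, 1 with plate column or without the 4 WT libraries that stood apart, 5 with DESeq2, and 0 to 108 with 1 library left out. Calls in Msh3+/- against WT numbered 1 with plate column, plate row or limma on log2(FPKM + 1), and 1 to 3 with 1 left out. In the Q140 pair 5 of the 6 genes were called in every fit with 1 library left out, and all 6 with library totals or limma on FPKM. With the plate row and with DESeq2, Tmem174 was called, and with the plate row Sv2c was not. The cause of these changes was not tested.

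Deviations of same-numbered libraries correlated at -0.10 to 0.21: 6 of 7 were positive and 4 over 0.1, against 4 of 21 differently numbered pairs over 0.1 (range -0.26 to 0.14), and 5 of 7 Msh3-/- libraries correlated best with their own number. Since not every pair passed 0.1, the numbers were not used as pairs. A replicate block gave 6 calls, 881 genes with an unadjusted p under 0.05 and 20 within 5 Mb. Leaving out 1 library took the interferon median to between -0.09 and 0.31. Depth and spread limit weakly expressed genes, whose median interval half-width was 0.55.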
